A study of Homo sapiens with 40 samples.

Results

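The genes described here were 51 genes of DNA replication and repair, out of the 19689 protein-coding genes of the GENCODE 44 annotation. They were chosen as a list by function, with earlier results of these data known, and no rule on measured values was used. Each gene was represented by the H3K27ac peak and by the CTCF peak with the highest mean normalized count within 2 kb of any of its start sites, and by the enhancers for which it was the nearest protein-coding gene within 100 kb. The measurements came from chromatin immunoprecipitation and sequencing (ChIP-seq) of EndoC-βH3 cells, a single human pancreatic beta-cell line of wild-type label that grows because it carries SV40 large T antigen and the telomerase gene hTERT. These transgenes can be cut out by a Cre recombinase that 4-hydroxytamoxifen (4-OHT) activates. Non-senescent cells were the untreated control, and senescent cells had received 4-OHT for 3 weeks, so that senescence and loss of the transgenes cannot be told apart. Acetylated histone H3 lysine 27 (H3K27ac), found at promoters and enhancers in use, was measured in 3 libraries of each state, as was CTCF, a DNA-binding protein that anchors chromatin loops. H3K4me1, which marks enhancers, was measured in 2 libraries of each state, and so was Rb, the retinoblastoma protein. Every library had its own input library, which made 40 libraries in all. The labels do not say that the libraries of a state came from separate cultures.

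A DNA replication fork is built in steps. The origin recognition complex marks the origins, the kinase CDC7 with its partner DBF4 and the CDC45 and GINS proteins start the helicase, primase and the polymerases copy the strands, and the PCNA ring, loaded by replication factor C, tethers the polymerases to DNA. Damage met by the fork is handled by homologous recombination, the Fanconi anaemia pathway and the ATM and ATR checkpoint kinases. Many of these genes are driven by E2F transcription factors. Rb binds E2F and holds it inactive, and large T antigen in turn binds Rb, which is why these genes are of interest in cells that lose large T.

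What the values used here can show is limited. Each peak carries 1 mean normalized count, the authors' mean over the 6 libraries of that antibody, senescent and non-senescent together, with no value per library. A peak level therefore has no SD and cannot be compared between the states, and the order of genes by level cannot be set against a replicate spread. The authors' own comparison of the states at each peak was not used. The states enter here only through lists: enhancers listed in each state, and Rb regions called in senescent against non-senescent cells. The sum of the mean normalized counts was 19239499 over 51489 H3K27ac peaks and 6136424 over 51457 CTCF peaks, and the depth of single libraries was not known. As a check of the beta-cell label, all 10 beta-cell marker genes had an H3K27ac peak at a start site, as did 66.4% of all protein-coding genes, 1 of 5 acinar, 1 of 4 duct, 2 of 3 alpha-cell, 0 of 4 fibroblast and 1 of 3 immune markers. The level did not separate these lists gene by gene. INS, the insulin gene, had 3078 mean normalized counts and MAFA 43.6, while IRX2 of the alpha-cell list had 3342, CD68 of the immune list 3544 and CPA1 of the acinar list 1498.

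Promoter sequence was read first, because Rb binds E2F and many genes of this kind are driven by E2F. A stretch from 250 bases before to 50 bases after the gene start was found in the RefSeq promoter table (build GRCh38.p14) for 46 of the 51 genes. POLD3, RPA2, RPA3, GINS4 and FANCI were not matched. An E2F-type motif, any of TTTGGCGC, TTTCCCGC, TTTGCCGC or TTTCGCGC on either strand, was present in 15 of the 46 stretches (32.6%). The same letters were present in 4.44% of all 15843 protein-coding promoters and in 5.85% of the 9763 promoters with an H3K27ac peak over the start. The share in the members was thus several times that of promoters with the same mark, although the motif is rich in G and C and the members' promoters were also rich in CpG. Their median ratio of observed to expected CpG was 0.931, against 0.855 in the promoters with H3K27ac and 0.763 in all promoters. Median GC content was 64.8%, 65.7% and 62.7% in the same order. TTTCCCGC was the motif in 9 of the 15 genes, TTTGGCGC in 3, TTTCGCGC in 2 and TTTGCCGC in 1, and no gene had more than 1 match.

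The 8 members with an E2F-type match and the highest H3K27ac levels, by the peak that stands for the gene, are shown with 30 bases each. They are written 5′ to 3′ along the gene, with the match in capitals, because they let the sites be compared letter by letter.
FANCA: actacaccgcgGCGGCAAAgccaaacgcaa
PCNA: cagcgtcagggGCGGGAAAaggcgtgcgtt
MSH6: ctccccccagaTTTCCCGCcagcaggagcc
GINS1: agctttgttcgGCGCCAAAgcgcggagcgg
LIG1: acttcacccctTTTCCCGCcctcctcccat
RFC3: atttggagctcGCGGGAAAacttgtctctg
TYMS: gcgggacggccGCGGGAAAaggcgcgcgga
POLA2: ttggctcccggTTTCGCGCatgcgtgcact
The windows lie at chr16:89816801-89816830 on the minus strand for FANCA, at chr20:5126663-5126692 on the minus strand for PCNA and at chr2:47783137-47783166 on the plus strand for MSH6. GINS1 has its window at chr20:25407667-25407696 (plus strand), LIG1 at chr19:48170440-48170469 (minus strand) and RFC3 at chr13:33818083-33818112 (plus strand). TYMS has its window at chr18:657603-657632 and POLA2 at chr11:65261898-65261927, both on the plus strand.

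The matches sat close to the starts. Counted from the start, the first base of the match was at -172 in FANCA, -114 in LIG1, -59 in PCNA, -55 in RFC3, -53 in POLA2 and -39 in TYMS, and 3 and 5 bases into the transcript in MSH6 and GINS1. In 13 of the 15 genes the match began within 60 bases of the start on either side, and 10 of the 15 matches (66.7%) began in the last 100 bases before it, where 37.8% of the 743 matches over all promoters began. In 11 of the 15 the letters read against the direction of the gene. In 4 of the 46 genes the stretch belongs to a RefSeq start over 500 bases from the start that GENCODE tags as canonical, by 6664 bases in PCNA, 44963 in BRCA1, 2825 in PRIM2 and 1066 in CHEK1. Of these, PCNA held a match and the other 3 count as genes without one. In 14 of the 15 genes the window lay inside the H3K27ac peak that stands for the gene, the exception being GINS1. GINS2, a subunit of the GINS complex, had one of the lowest H3K27ac levels of the list and has no annotated exon in the 150 bases before its start, chosen after its values were seen to show a site in a longer context. These bases, chr16:85688955-85689104 on the minus strand, carry the E2F-type match in capitals 31 bases before the start.
GINS2: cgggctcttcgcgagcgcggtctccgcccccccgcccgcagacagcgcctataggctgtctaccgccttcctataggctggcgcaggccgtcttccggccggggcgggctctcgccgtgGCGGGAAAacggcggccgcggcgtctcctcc

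The 2 other motifs searched gave a different picture. The CHR element TTTGAA, bound by the MuvB complex at many mitotic genes, was present in 4 of 46 member promoters (8.7%), DBF4, RRM1, BRIP1 and ATM, against 12.1% of all promoters and 8.89% of those with H3K27ac. None of the 46 held both a CHR element and an E2F-type match, which 0.492% of all promoters and 0.625% of those with H3K27ac did. A CCAAT box, the site of the factor NF-Y, was present in 26 of 46 (56.5%), against 36.4% and 37.1%. A further 67 genes of replication and repair outside the list gave similar shares, since of the 50 with a matched promoter 16 (32%) held an E2F-type match, 3 (6%) a CHR element and 24 (48%) a CCAAT box. None of the E2F-type patterns contains the CHR or CCAAT letters. A match is a description of letters, not of binding.

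**Figure D1:**
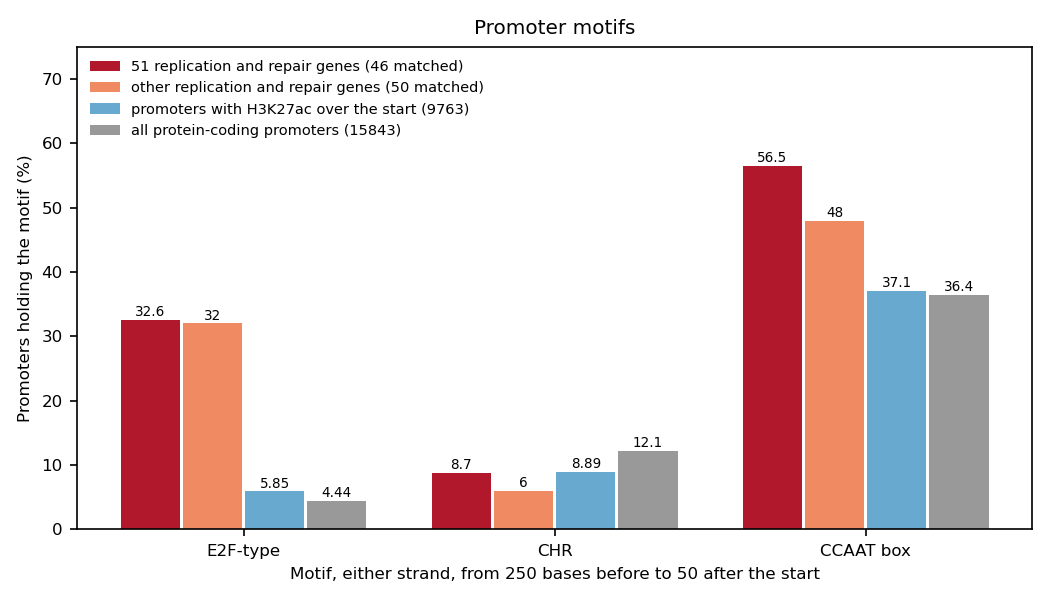
Share of promoters (%, vertical axis from 0) that hold each of 3 motifs on either strand, from 250 bases before to 50 after the start, in 4 sets of genes. The E2F-type motif stood at 32.6% in the members and 32% in the other replication and repair genes, against 5.85% in promoters with H3K27ac over the start and 4.44% in all promoters.

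All 51 members carried an H3K27ac peak within 2 kb of a start site, against 66.4% of all protein-coding genes, so that no member lacked the mark when both states were pooled. All 67 other replication and repair genes had one too. The peaks of the members were of ordinary height. Their median mean normalized count was 528 per peak (lowest 112, highest 3699), against 601 over the 13065 protein-coding genes with a peak and 598 in the other replication and repair genes, and 25 of the 51 lay above the median of all genes with a peak. Per kb of peak, the median was 167 in the members, 184 in all genes with a peak and 183 in the other replication and repair genes. In 45 of the 51 the peak covered the canonical start, a share that was not counted over all genes.

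For 6 members the peak that stands for the gene is not the one at the canonical start, because an alternative transcript starts at a stronger peak. BRCA1, an E3 ligase subunit of homologous recombination, was represented by a peak of 3324 at chr17:43168164-43177471 that covers the start of its neighbour NBR1, whereas the peak at its own canonical start held 699. RFC4, a small subunit of the clamp loader, was represented by a peak of 2118 over the start of EIF4A2, and its canonical start had 1087. PCNA, the sliding clamp, had 1659 at a peak shared with CDS2 and 750 at its canonical start. POLD3, an accessory subunit of polymerase delta, had 735 at the start of LIPT2 and 569 at its own. GINS1 had 697 at the start of ABHD12 and 81.7 at its canonical start, which made it the lowest member on that count. RPA3, the smallest subunit of the single-strand DNA binding complex, had 628 at a peak shared with UMAD1 and no peak within 2 kb of its canonical start. Counted at canonical starts alone, 50 of 51 members had a peak and the median fell to 448, against 578 in all genes.

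**Figure D2:**
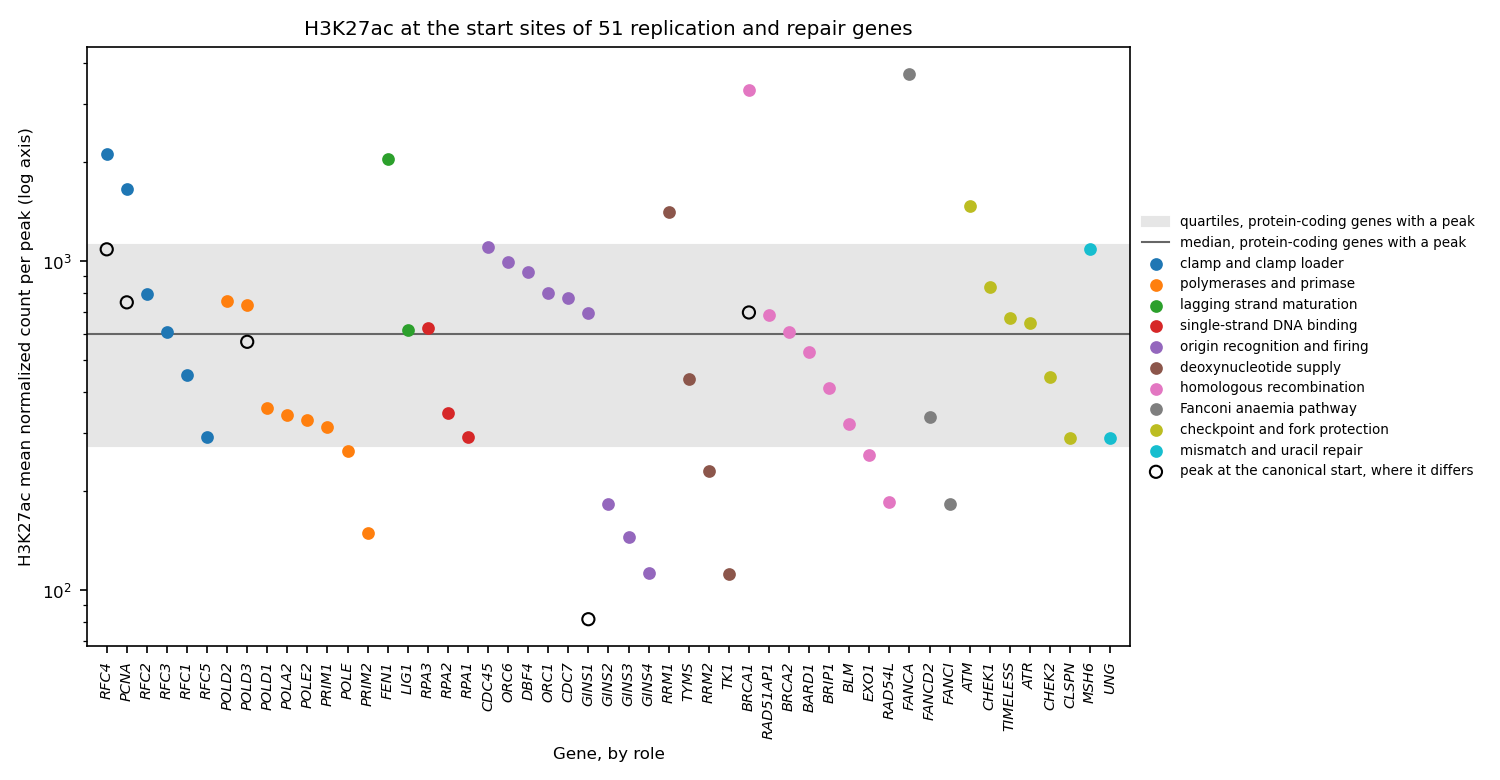
H3K27ac mean normalized count per peak (the authors' mean over 6 libraries of both states, logarithmic vertical axis) for each of the 51 genes, ordered by role and then by level. The grey band and line are the quartiles and the median of all protein-coding genes with a peak, and open circles give the peak at the canonical start where it differs. FANCA at 3699 and BRCA1 at 3324 are the highest filled points, and TK1 at 112 is the lowest.

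Among the clamp and clamp loader genes the level ran from 292 to 2118, with a median of 701. RFC2 had 795, RFC3 608, RFC1, the large subunit, 450, and RFC5 292. Per kb, the 6 genes ran from 131 to 356, and PCNA held the highest value at its shared peak. The order of these neighbours cannot be tested, since no spread is known.

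Polymerase and primase genes had lower levels as a group, with a median of 336 over 8 genes. POLD2, a polymerase delta subunit, had 760. POLD1, its catalytic subunit, had 357, POLA2, a subunit of polymerase alpha, 341, and POLE2, of polymerase epsilon, 330. PRIM1, the catalytic primase subunit, had 314, and POLE, the catalytic subunit of polymerase epsilon, 265. PRIM2, the large primase subunit, was lowest at 149.5, in a peak of 1737 bp that held 86.1 counts per kb. Of the lagging strand genes, FEN1, the flap endonuclease, had 2049 in a 9451 bp peak that also covers TMEM258, and LIG1, the ligase that joins Okazaki fragments, had 620. Their levels per kb were closer to each other, at 217 for FEN1 and 171 for LIG1. RPA1 and RPA2, the larger subunits of the single-strand binding complex, had 292 and 347.

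The 9 genes of origin recognition and firing split into a higher and a lower part. CDC45, a helicase cofactor, had 1102, ORC6 and ORC1, of the origin recognition complex, 995 and 798, DBF4 925 and CDC7 771. The GINS genes were among the lowest of the list, with 182 for GINS2, 145 for GINS3 and 113 for GINS4, and 81.7 for GINS1 at its canonical start. Per kb the peaks of GINS2, GINS3 and GINS4 held 67.8, 102 and 84.6 counts, below the lower quartile of 115 of all genes with a peak. The peaks of CDC45, ORC1, ORC6 and DBF4 each also covered the start of another coding gene, UFD1, PRPF38A, VPS35 and SLC25A40 in that order.

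The 4 genes of deoxynucleotide supply ran from 112 to 1409. RRM1, the large subunit of ribonucleotide reductase, had 1409, and its 406 counts per kb were the highest of all members. RRM2, the small subunit, had 231, and 61.6 per kb. TYMS, thymidylate synthase, had 439. TK1, thymidine kinase, had the lowest level of the list on both scales, 112 per peak and 44 per kb, in a peak that also covers the start of AFMID.

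Repair and checkpoint genes ran from 183 to 3699. FANCA, of the Fanconi anaemia core complex, had the highest level at 3699, in a 17648 bp peak at chr16:89815349-89832996 that reaches over the start of SPIRE2. Its level per kb was 210, near the median of all genes with a peak. FANCD2 and FANCI, which form the ubiquitinated pair of that pathway, had 337 and 183. In homologous recombination, RAD51AP1 had 686, BRCA2 609, BARD1, the partner of BRCA1, 528, the helicases BRIP1 413 and BLM 320, the nuclease EXO1 258 and RAD54L 186. The kinase ATM had 1476 in a peak shared with its divergent neighbour NPAT, and CHEK1 had 837, TIMELESS 671, ATR 651, CHEK2 445 and CLSPN 290. Of the mismatch and uracil repair genes, MSH6 had 1090 and UNG 291.

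Some peaks were shared between genes. The peak of 21 of the 51 members also covered the canonical start of another protein-coding gene (41.2%), against 24.3% of protein-coding genes with a peak. These 21 had a median of 735 (112 to 3699) and the other 30 a median of 342 (113 to 1409). Per kb the medians were 215 and 144. All genes with a peak showed the same order, 836 against 523 per peak and 217 against 170 per kb. The rule takes the highest peak at any start of a gene, and 6 of the 21, BRCA1, RFC4, PCNA, POLD3, GINS1 and RPA3, shared a peak only through an alternative start. At canonical starts alone, an alternative chosen after seeing the data, the peak of 15 of 50 members (30%) covered another coding start, against 23% of coding genes with a peak there. The medians were then 686 for the 15 and 357 for the other 35, and 210 and 149 per kb. The part each gene has in a shared peak was not tested, as ChIP-seq reads carry no gene of origin. A gene of any type starting head to head within 1 kb upstream was found for 20 members (39.2%), 13 with a coding partner and 7 with a partner of another type, against 19.8% of all protein-coding genes and 26.9% of those with an H3K27ac peak. By the peak that stands for the gene, the members with an E2F-type match did not have a higher H3K27ac level per peak. This split was not made per kb or at canonical starts alone. The median of the members with a match was 341 (145 to 3699, 15 genes), against 651 (112 to 3324) in the 31 members with a promoter sequence and no match.

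CTCF was common at these promoters but weak. A CTCF peak lay within 2 kb of a start site in 34 of the 51 members (66.7%), against 47.6% of all protein-coding genes and 59.7% of those with an H3K27ac peak there, and in 33 of the 67 other replication and repair genes (49.3%). Set against the genes with H3K27ac, the share in the members was close to the background. The median level over the 34 was 33.8 mean normalized counts per peak (5.19 to 447), against 84.9 in all genes with a CTCF peak, 85.6 in those that also had H3K27ac, and 88.5 in the other replication and repair genes. Only 7 of the 34 lay above the median of all genes with a CTCF peak, against 17 of 33 in the other replication and repair genes. Per kb of peak, the median was 50.5 in the members, 81.3 in all genes and 90.2 in the other list. The peaks were also narrower, with a median of 747 bp against 1032 bp.

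The highest CTCF levels were 447 at GINS4, 338 at PCNA, 254 at PRIM2, 215 at ATM and 209 at FEN1. The H3K27ac levels of GINS4 and PRIM2, 113 and 149.5, were among the lowest of the list. Per kb these peaks held 284 counts at GINS4 and 178 at PRIM2. The PCNA peak lies 5969 bases from its canonical start, at the alternative start named above, and the FEN1 peak 3664 bases into the gene. Within 2 kb of the canonical start, PCNA had no CTCF peak and FEN1 had one of 11.1. The lowest levels were 5.19 at ATR, 8.87 at RAD54L, 8.9 at FANCD2, 10.3 at RRM1 and 11.3 at BARD1. These 5 lay at or below percentile 6.9 of the genes with a CTCF peak. In 31 of the 34 genes the CTCF peak overlapped the H3K27ac peak, and in 11 it covered the canonical start. These shares were not counted over all genes, so they cannot be called particular to the members.

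The 17 members with no CTCF peak within 2 kb were RFC1, RFC3, RFC4 and RFC5, POLA2 and POLD3, RPA1, RPA2 and RPA3, GINS3 and DBF4, BRCA2, BRIP1 and RAD51AP1, CHEK2, MSH6 and UNG. They included all 3 single-strand DNA binding genes and 4 of the 5 replication factor C genes. All 4 deoxynucleotide genes and all 3 Fanconi anaemia genes lay outside this group, some through weak peaks, such as RRM1 at 10.3 and FANCD2 at 8.9. Of all coding genes with H3K27ac, 59.7% had a CTCF peak, and these roles hold few genes. No pattern by role was read from these counts. Their nearest CTCF peak was 3062 to 69174 bases from the canonical start, with a median of 14431. Their median H3K27ac level was 450 per peak and 190 per kb, against 574 and 165 in the 34 with CTCF, so the order of the groups depended on the scale.

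**Figure D3:**
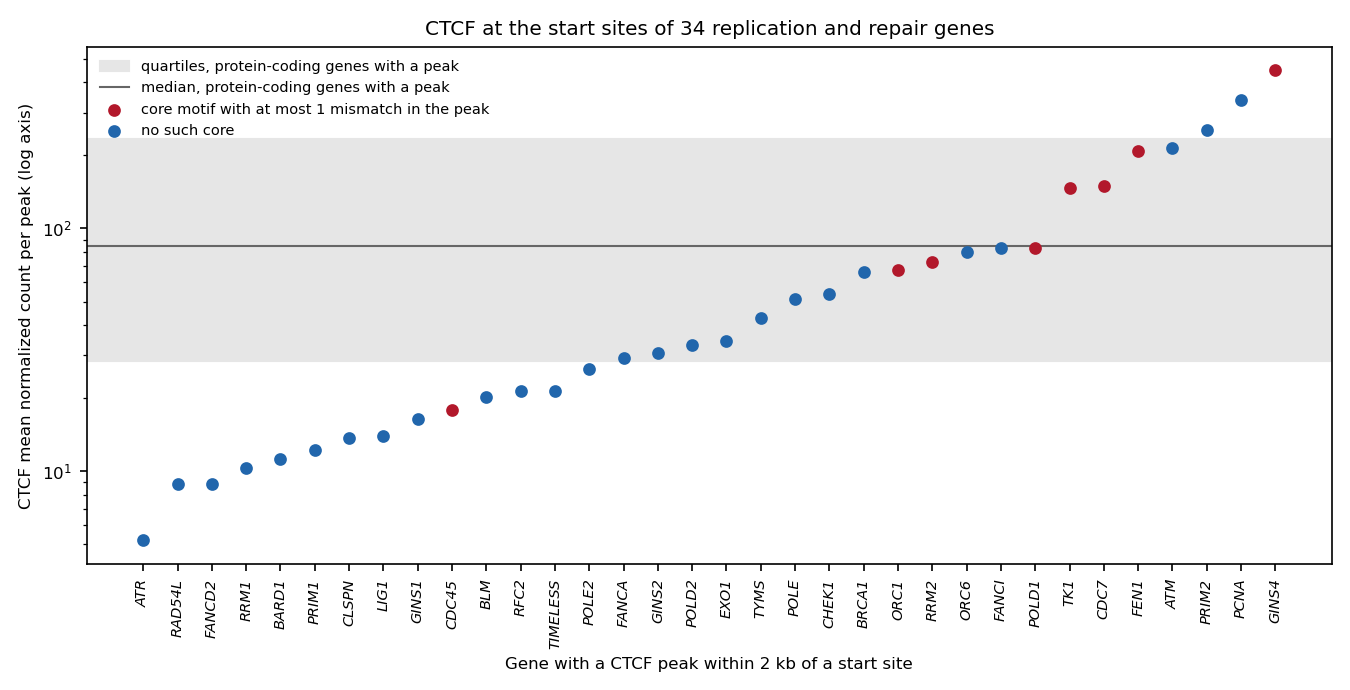
CTCF mean normalized count per peak (the authors' mean over 6 libraries of both states, logarithmic vertical axis) for the 34 genes with a CTCF peak, in rising order. The grey band and line are the quartiles and median of all protein-coding genes with a CTCF peak, red points have a CTCF core with at most 1 mismatch. Of the 34 points, 7 lie above the line, from TK1 at 147 to GINS4 at 447.

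A short CTCF core was found in fewer of these peaks than over all genes. The authors filtered CTCF peaks for a motif by another search, so a peak without this core can still hold that motif. The 12-letter core of the CTCF consensus, with at most 1 mismatch on either strand, was present in 8 of the 34 peaks (23.5%), against 37% of the 9371 peaks that stand for all protein-coding genes, 47.2% of all CTCF peaks and 6.71% of regions shifted by 10 kb. The 8 were POLD1, FEN1, GINS4, CDC45, CDC7, ORC1, TK1 and RRM2. Of the 7 members with a level above the all-gene median, 4 held the core (GINS4, FEN1, CDC7 and TK1), and of the other 27, 4 did. No member peak held the core without a mismatch, which 8.13% of the peaks standing for all genes did. The CTCF peaks of the members were narrower at the median, and a narrow peak has fewer positions to match. The part of peak width in these shares was not tested. The sites of the 7 genes other than GINS4 are shown with 9 flanking bases on each side and the core in capitals, on the strand where the core reads forward, so that the varying letters can be seen.
POLD1: ccaggttggCCACGAGGGGGCagttgtccc
FEN1: tgagagtggCCACAAGATGGCaccatgctc
CDC45: actgctttgTCAGTAGGTGGCattccttct
CDC7: tcagaaacaCCGGCAGGGGGCtgcagggag
ORC1: agaaatgggCCACAAGGGGGCtgagaggcg
TK1: ggattcctcCCACGAGGGGGCgggctgcgg
RRM2: tgtgttttgCCACTAGGTGGAgcgatttag
These windows are chr19:50414927-50414956 (minus strand), chr11:61797356-61797385 (plus), chr22:19477752-19477781 (minus), chr1:91501450-91501479 (minus), chr1:52404900-52404929 (minus), chr17:78187164-78187193 (minus) and chr2:10124701-10124730 (plus) of hg38, in the order of the genes above. The core of TK1 lay 126 bases before the canonical start, that of ORC1 491 bases before it and that of CDC7 613 bases after it. The core of POLD1 lay 30594 bases into the gene, beside an alternative start.

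**Figure D4:**
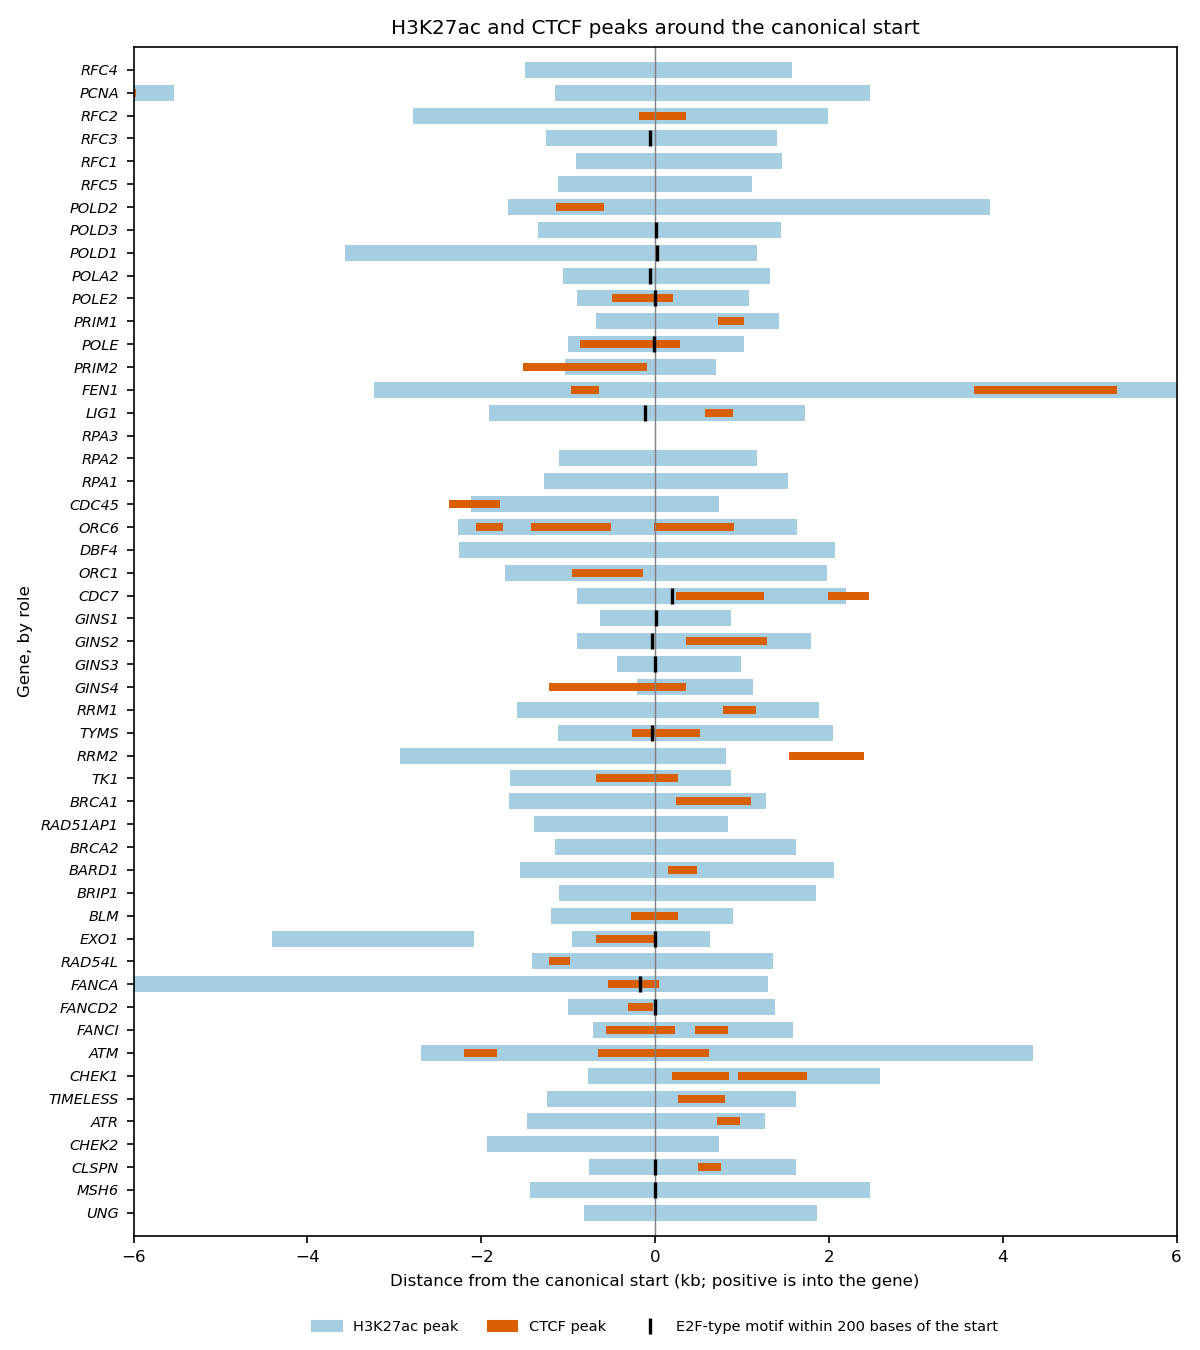
Extent of the H3K27ac peaks (blue) and CTCF peaks (orange) that lie within 2 kb of a start site of each of the 51 genes. The horizontal axis is the distance in kb, out to 6 kb from the canonical start, with positive values pointing into the gene. Peaks farther than 2 kb from every start site are not drawn, such as the CTCF peak 3062 bases from the canonical start of UNG. Black ticks mark an E2F-type motif within 200 bases of the canonical start. H3K27ac peaks cover the start in nearly every row, the CTCF peak that stands for a gene covers it in 11, and RPA3 has no peak in the window.

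Of the values used here, only the enhancer lists and the Rb regions separate the states. No listed enhancer was nearest to 36 of the 51 members. An enhancer here is a region outside promoters with H3K4me1 and H3K27ac peaks that overlap, listed once for non-senescent cells (14886 regions) and once for senescent cells (13076), and regions of the 2 lists were taken as the same where they overlapped. A member was the nearest coding gene within 100 kb for 20 listed enhancers, and these belonged to 15 of the 51 members. Of the 20, 9 were in both lists, 10 only in the non-senescent list and 1 only in the senescent list. The shares were 45%, 50% and 5%, against 60.9%, 23.8% and 15.3% of the 12812 enhancers assigned to any protein-coding gene. By gene, 9 members (17.6%) had an enhancer of both states, against 22.5% of all protein-coding genes. For non-senescent cells alone, 9 members (17.6%) had one, against 11.9%, and for senescent cells alone 1 member (1.96%) did, against 8.4%. Among genes with an H3K27ac peak the corresponding backgrounds were 28.6%, 15% and 10.9%. The members' count for non-senescent enhancers was therefore near its background by gene, and the counts are small. In the 67 other replication and repair genes the same counts were 12 (17.9%), 8 (11.9%) and 5 (7.46%). At least 1 listed enhancer was assigned to 20 of these 67 genes (29.9%), against 15 of the 51 members (29.4%). The share of all protein-coding genes with any listed enhancer was not counted. Having none can therefore not be called particular to the members.

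The enhancers listed in 1 state alone had lower H3K27ac levels at the median, with ranges that overlapped. The level is a mean over libraries of both states, which by itself lowers it for a region marked in 1 state alone. The 9 listed in both states overlapped H3K27ac peaks of 97.6 to 1713 mean normalized counts, with a median of 321, and the 10 of non-senescent cells alone overlapped peaks of 49.4 to 304, with a median of 115. The same held over all genes, with medians of 437 for both lists, 135 for the non-senescent list alone and 136 for the senescent list alone. Median widths were 2713 bp and 1576 bp for the members' enhancers, against 2734.5 bp and 1577 bp over all. The level of these peaks in each state is not known here, and the part that a level near the calling threshold has in the lists was not tested.

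FANCD2 had 2 of the 10 non-senescent enhancers, one on either side of its start. One was 7503 bases before its canonical start, at chr3:10017452-10020418, with an H3K27ac level of 304, and the other 17613 bases into the gene, over exons, at chr3:10042962-10045139, with 257. They were the strongest of the 10. BLM had one 51839 bases upstream with 169, RFC1 one inside its gene body with 124, POLD2 one 8517 bases upstream with 120 and EXO1 one 3244 bases upstream, at chr1:241843799-241846122, with 110. RFC3, CDC7, POLA2 and GINS2 had one each, with 102, 91.3, 85.9 and 49.4. POLA2, RFC3, GINS2 and EXO1 also had an enhancer of both states. The 1 enhancer listed only in senescent cells, chr7:74269538-74270306, lay 15522 bases upstream of RFC2, was 769 bp wide and had an H3K27ac level of 90.3. No listed enhancer was nearest to any of the 4 deoxynucleotide genes, the 6 checkpoint and fork protection genes, FEN1, LIG1 or PCNA.

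Of the 20 enhancers, the one with the highest level was listed in both states and lay over exons of GINS2, chr16:85669353-85683335, 13983 bp wide and with an H3K27ac level of 1713, where the peak at the GINS2 start held 182. GINS4 had a similar order, with 495 at an enhancer over its exons and 113 at its start, and RFC3 had 671 at an enhancer 56197 bases upstream and 608 at its start. POLA2 had an enhancer of 466 over exons. POLD3, POLE2, FANCA, RPA3 and EXO1 had enhancers of both states between 97.6 and 321. A listed enhancer of each state, nearest to NBR1 and so not among the 20, also overlapped the start-site peak of 3324 that stands for BRCA1. For no other member did the peak that stands for the gene overlap a listed enhancer, against 5.89% of coding genes with a peak. A weaker peak of EXO1 within 2 kb of a start, of 110, did overlap its non-senescent enhancer. The nearest coding gene need not be the one an enhancer acts on. When starts of genes of any type were allowed to compete, 4 of the 10 non-senescent enhancers kept their member as the nearest gene, those of RFC1, POLA2 and EXO1 and the one inside FANCD2. The other 6, near POLD2, BLM, CDC7, RFC3, GINS2 and upstream of FANCD2, went to starts of other genes. So did 4 of the 9 enhancers of both states, those of RFC3, RPA3, EXO1 and GINS2, the last being the one of 1713, while the other 5 and the senescent one near RFC2 kept their member.

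**Figure D5:**
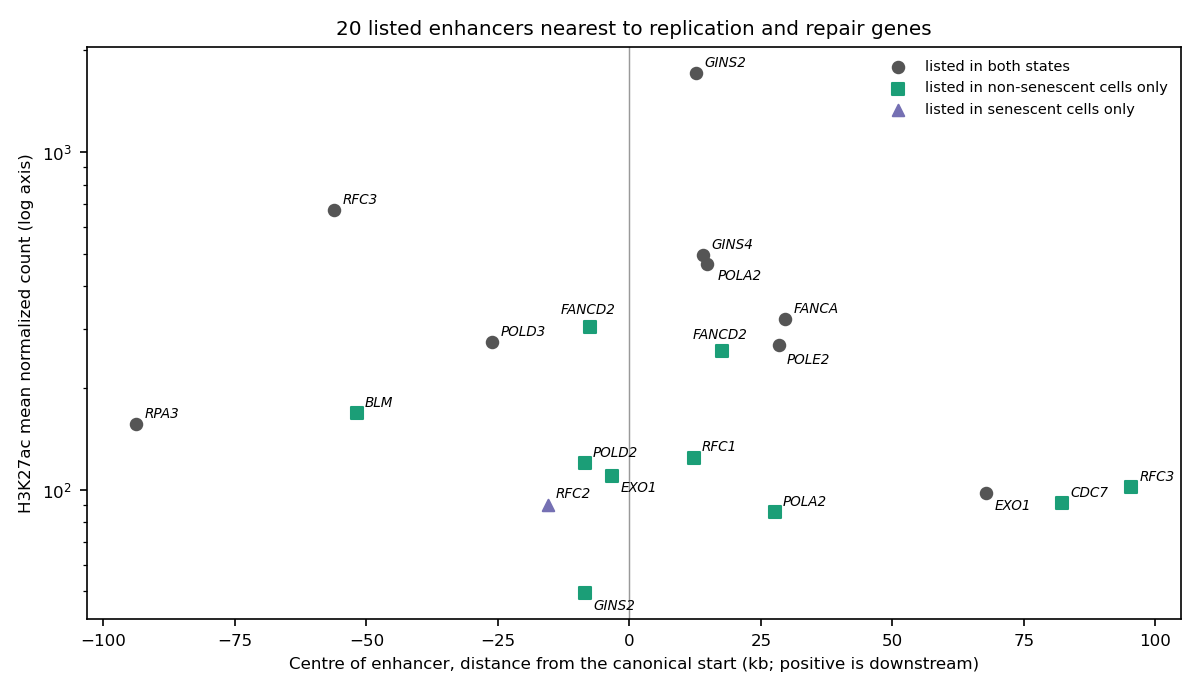
The 20 listed enhancers nearest to a member, by distance of their centre from the canonical start (kb, positive is downstream) and by the H3K27ac mean normalized count of the peak they overlap (logarithmic axis). Grey circles are listed in both states, green squares only in non-senescent and the purple triangle only in senescent cells. The squares lie between 49.4 and 304, and the circles reach 1713 at GINS2.

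Rb regions called in senescent over non-senescent cells were rare at these genes. Of the 2435 regions, 1 lay within 2 kb of the start sites of a member, POLD3, against 1.56% of all protein-coding genes and 2.33% of those with H3K27ac. Within 10 kb it was still the only one, against 1.98% of all genes. The share in the members, 1.96%, was near the background. The region, chr11:74592488-74592735, is 248 bp wide and covers the canonical start of POLD3, within the H3K27ac peak of 569. It also holds an E2F-type match 7 bases into the transcript, shown with its surroundings, chr11:74592578-74592607 of hg38 on the plus strand, and with the match in capitals, because it is the 1 place in the list where an Rb region and such letters coincide.
POLD3: gagcaaagacgTTTCCCGCcggcgggagct
An E2F-type match was present in 34 of the 2435 Rb regions (1.4%) and in 24 of the 282 within 2 kb of a coding start (8.51%). The median distance from a canonical start to the nearest Rb region was 1205 kb for the members and 1161 kb for all genes. The list holds regions that differ between the states, so binding of Rb present in both would not appear in it.

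Across the other 67 replication and repair genes the highest H3K27ac levels were 7639 at WEE1, a kinase that restrains entry into mitosis, 3591 at APEX1, 3568 at LIG4 and 2610 at XRCC1. In that list 33 of 67 genes lay above the median of all genes with a peak, 2 had an Rb region within 2 kb of a start site (2.99%) and 26 had a head-to-head neighbour (38.8%). More than 1 E2F-type match was present in 6 of its 50 matched promoters (12%) and in 0 of the members' 46, and TTTGGCGC in 12% and 6.52%, with no test.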

How the data were processed

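ChIP-seq libraries of H3K27ac, CTCF, H3K4me1 and Rb from non-senescent and senescent EndoC-βH3 cells were grouped by the labels. According to the methods, Trim Galore and Bowtie2 (hg38) were used for trimming and alignment. Removal of duplicates is given for H3K27ac and H3K4me1 (Picard) and for Rb (samtools), and not for CTCF. The authors used HOMER to call peaks of both histone marks and MACS2 for CTCF and Rb, filtered CTCF peaks for a motif, and ran DESeq2 on counts in peaks. The CTCF core search here is not that filter. Tool versions and the pooling of replicates are not given in the sources used here.

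The deposited tables give for each peak a mean signal, the authors' mean over libraries of reads divided by size factors, which was used. The other columns hold the authors' own comparison of the states (log2 fold changes, their errors, test statistics and p-values) and were not used. The 3 deposited region lists (other values: positions only) were used as given. The tables hold no value per library, so the planned edgeR test could not be run and no test was made. Values are descriptions set beside all protein-coding genes, and members are not replicates.

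The 24 chromosome names match hg38, and 0 regions run past a chromosome end. Of the 14886 starts in the non-senescent enhancer list, 4282 equal a start in the H3K27ac table exactly, so table starts were read as counting from 0 like those of the lists, and positions are given counting from 1. Peaks were overlapped by at least 1 bp with windows of 2 kb either side of the starts of protein-coding transcripts (GENCODE 44). Enhancers went to the nearest coding start within 100 kb. Motifs were searched on both strands. Overlap and motif searches were tested on simulated data. Python 3.11.15, numpy 2.4.6, pandas 2.3.3 and matplotlib 3.10.9 were used.

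The members, the comparison list, the motifs and the rules were chosen with earlier results of these data known. Genes were named by a rule: the 5 highest and 5 lowest for each of H3K27ac and CTCF, those without a peak, with an enhancer in 1 state alone or with an Rb region within 10 kb, and up to 8 with an E2F-type motif. Further members are given to show each role.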

Additional observations from a re-analysis of the deposited data

How the results depend on the processing

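No paired analysis was possible because the tables hold no value per library. For the same reason the planned test of the states, its DESeq2 alternative, the filter on low counts and leaving out single libraries were not run. The numbers of members with an H3K27ac peak (50 to 51), a CTCF peak (31 to 38) and an Rb region (1) stayed within 1.5 times the reported count under every window, start site and minimum tried. The H3K27ac median of 528 became 608 with windows of 5 kb, 448 at canonical starts alone and 167 per kb of peak width, which is another unit. The CTCF median of 33.8 became 52.6 with windows of 5 kb, 30.5 at canonical starts alone, 42.6 with peaks of at least 10 mean normalized counts and 50.5 per kb. The 10 enhancers of non-senescent cells alone became 5 when genes of any type competed for the nearest start, of which 4 were among the 10, and the 1 of senescent cells alone became 2 when a shared enhancer needed a reciprocal overlap of 50%. The 15 promoters with an E2F-type motif became 3 with TTTGGCGC alone, as fewer letters were allowed (6.52% of members, 0.89% of all promoters and 1.18% of those with H3K27ac), and 17 of 51 within 200 bases of the canonical start, where 5.11% of all coding genes held one. The 8 CTCF peaks with a core became 0 without a mismatch. Depth per library was unknown, so no level has an interval.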
